A study of Rattus norvegicus with 8 samples.

Results

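The genes described here make cholesterol and fatty acids, or control that work. They are 30 genes chosen by symbol from the 28546 gene entries of a raw count table, as a list of pathway enzymes, their regulators and a sterol carrier. All 30 were in the table, and 29 had enough reads to be tested among 14445 tested genes. Elovl6, an enzyme that lengthens saturated fatty acids, was read 12 times over the 8 libraries and did not enter the test. The RNA came from astrocytes of Sprague Dawley rat pups. All 8 libraries were from astrocytes exposed for 24 h to the melanoma line 12-273 BM or to medium from it. For sh-APP (n = 3) a hairpin against APP, the gene of the amyloid precursor protein, was in the melanoma cells. For anti-Abeta (n = 3) the melanoma cells had a scrambled hairpin and the culture held an anti-amyloid beta antibody. For control (n = 2) they had the scrambled hairpin and no antibody. The labels name a co-culture in one place and conditioned medium in another, and do not settle between them. Separate cultures are not stated for the replicates, so p-values refer to the spread between these libraries, which may be technical. The labels show a single hairpin in the sh-APP melanoma cells and do not say whether these are a clone. No group without melanoma was among the samples used here.

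Cholesterol is built from acetyl-CoA. The mevalonate steps make isoprenoid units, squalene synthesis and closure give lanosterol, and a set of reactions in the endoplasmic reticulum remodels lanosterol to cholesterol. The transcription factor SREBP-2 (Srebf2) drives mainly sterol genes and SREBP-1 (Srebf1) mainly fatty acid genes. Both are held back by Insig proteins when membranes are rich in sterol. In the brain cholesterol is made locally, and astrocytes supply neurons with it on particles that contain apolipoprotein E.

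Libraries held 34250464 to 47831595 counts, of which the member genes took 1.02 to 1.10% in sh-APP, 0.920 to 0.968% in anti-Abeta and 0.940 to 0.998% in control. On the scale used for all levels here, CPM (counts scaled to a common library total with edgeR's TMM factors), sh-APP was no longer above control: the members summed to 9736 to 10460 CPM in sh-APP, 8997 to 9804 CPM in anti-Abeta and 10440 to 10810 CPM in control. Astrocyte markers (10 genes, all tested) summed to 17050 to 19540 CPM in sh-APP, 13930 to 14930 in anti-Abeta and 15800 to 16160 in control, and of the 10 genes 7 were called higher and 1 lower in sh-APP than in control. Neuron markers summed to 144 to 155 CPM in sh-APP, 225 to 289 CPM in anti-Abeta and 330 to 357 CPM in control, most of it Map2 and Snap25. Of the 8 neuron markers 3 were called lower in sh-APP than in control (Map2, Snap25 and Elavl4), 2 were called higher (Tubb3 and Rbfox3) and 3 were not called. Oligodendrocyte lineage markers summed to 2738 to 2893 CPM in sh-APP, 2690 to 3019 CPM in anti-Abeta and 2313 to 2392 CPM in control, most of it Olig1 and Olig2. Of the 9 tested markers of this lineage 1 was called higher and 2 lower in sh-APP than in control, and 6 were not called. In anti-Abeta against control 2 were called higher, 1 lower and 6 were not called. Fibroblast and mural markers summed to 30.4 to 33.1 CPM in sh-APP, 21.0 to 26.3 CPM in anti-Abeta and 18.9 to 23.1 CPM in control, and endothelial markers to 6.09 to 8.37 CPM in sh-APP, 2.84 to 5.67 CPM in anti-Abeta and 2.59 CPM in both control libraries. Melanocyte and melanoma markers summed to 2201 to 2394 CPM in sh-APP, 3484 to 3761 CPM in anti-Abeta and 4229 to 4299 CPM in control. Nearly all of it was Gpnmb, which glia and phagocytes express too, while the pigment genes Mlana, Tyr, Tyrp1 and Dct were at or near 0. Microglia markers summed to 10.5 to 13.0 CPM in sh-APP, 11.8 to 21.8 CPM in anti-Abeta and 11.8 to 15.4 CPM in control. Most of it was Cd68, and Cx3cr1 was at 0 in every library. The part that these marker levels have in the results was not tested. App itself, targeted in the melanoma cells and read here in the rat astrocytes, had 598, 590 and 648 CPM in sh-APP, 514, 576 and 528 CPM in anti-Abeta, and 559 and 587 CPM in control, with no call against control in sh-APP (adjusted p = 0.323, edgeR) or anti-Abeta (0.414). These App levels therefore check nothing about the hairpin. Anti-Abeta replicate 2 stood furthest from its group, with a chi-square per degree of freedom of 30.9 and 45.8 in its pairs, against 19.5 in the remaining anti-Abeta pair.

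In sh-APP against control the pathway split rather than moving one way. Of the 29 tested members 14 rose and 10 fell, and 5 did not pass the test (edgeR quasi-likelihood test, Benjamini-Hochberg adjustment over all tested genes, threshold 0.05). Over all tested genes 25.8% rose and 27.9% fell. With library totals in place of edgeR's TMM scaling 17 members rose and 7 fell. The sh-APP and control libraries did not overlap in CPM for 25 of the 29, and this held for 70.7% of all tested genes. Changes are given on the log2 scale throughout. The median log2 fold change of the members was 0.23, against 0.03 over all tested genes. In anti-Abeta against control 7 members rose, 10 fell and 12 did not pass the test, where 12.7% of all genes rose and 16.6% fell, and with library totals 13 members rose and 6 fell. The groups were apart for 23 members, against 54.9% of all genes, and the median log2 fold change was 0.08, against 0.03 over all. Both comparisons use the same 2 control libraries, so they are not independent of each other. Set directly against each other, sh-APP was higher than anti-Abeta in 11 members, lower in 3, and 15 did not pass the test. The background was 10.1% higher and 16.0% lower, and the groups were apart for 18 members, against 41.3% of all genes. In bulk RNA, fewer cells of a type and less RNA per cell cannot be told apart, which holds for each value given here.

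**Figure D1:**
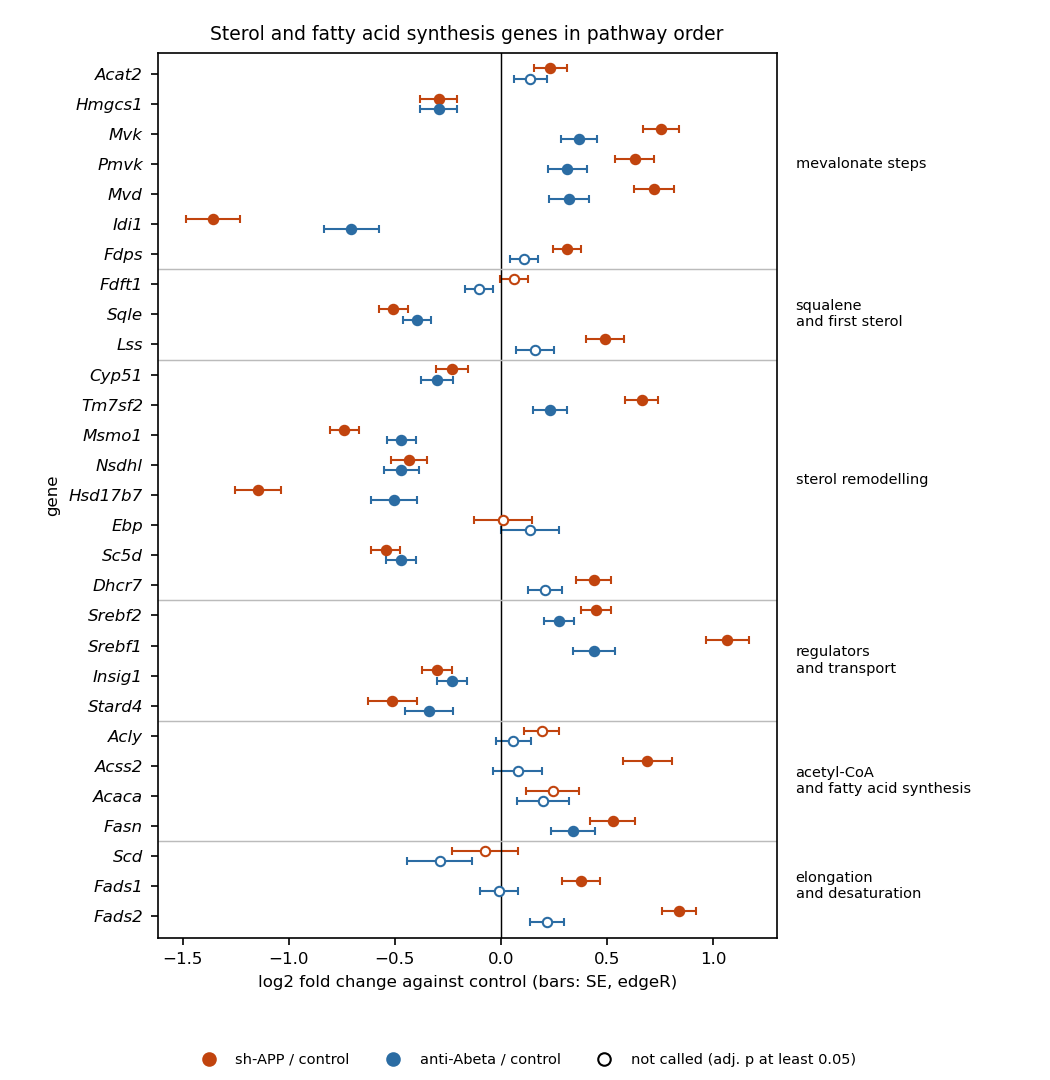
Log2 fold change (x axis) of each of the 29 tested members in sh-APP against control and in anti-Abeta against control, in pathway order from top to bottom. Points are edgeR estimates, open where not called, and bars are 1 standard error on each side. In sh-APP the members reach from -1.36 (Idi1) to 1.07 (Srebf1), and both extremes lie nearer to 0 in anti-Abeta.

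The summed level shows where the reads went. The 18 sterol synthesis members together had 6280 to 6658 CPM in sh-APP, 6285 to 6813 CPM in anti-Abeta, and 7886 to 7990 CPM in control. Both arms therefore lay below control, although 8 sterol members rose in sh-APP and 8 fell. A sum weighs genes with many reads most, and Hmgcs1, Cyp51 and Msmo1, which all fell, hold much of it. The 8 fatty acid members had 2193 to 2512 CPM in sh-APP, 1724 to 1944 CPM in anti-Abeta, and 1657 to 1860 CPM in control, so sh-APP lay above both other groups. Other sums did so too. The regulator and transport members had 1207 to 1291 CPM in sh-APP, 988 to 1048 CPM in anti-Abeta and 898 to 959 CPM in control. The related SREBP control genes had 953 to 972, 880 to 918 and 837 to 843 CPM in the same order. Among fatty acid genes it held for these members only. The 26 further fatty acid genes described below summed to 10250 to 11350 CPM in sh-APP, 9458 to 10520 CPM in anti-Abeta and 10820 to 11460 CPM in control, where sh-APP overlapped control. Much of that sum is Scd2, named here after its values were seen. It had 6013, 5934 and 6982 CPM in sh-APP, 5192, 5892 and 5295 CPM in anti-Abeta, and 5710 and 6294 CPM in control. Gene lengths were not used, so levels are compared between groups for a gene or a sum, never between genes.

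Promoters of 4 sterol enzymes are shown because coordinated sterol genes are known to share short motifs near their start sites. RefSeq promoters on the rat build GRCr8 were found for 23 of the 30 members, and the 250 bases before each start were searched on both strands. The CCAAT box, the site of the factor NF-Y that acts beside SREBP, was in 18 of the 23 (78.3%), against 34.0% of 33469 promoters of the same length. It was in 7 of the 8 such members that fell in sh-APP (87.5%), in 9 of the 12 that rose (75.0%), and in 2 of the 3 that were not called. The sterol regulatory element in the form TCACNCCAC was in 0 of the 23 and in 0.974% of all promoters. The E box CACGTG was in 2 of the 23 (8.70%), Insig1 and Sc5d, which both fell, and in 5.59% of all. The members' promoters had a median GC content of 64.8%, against 51.2% for all. A match is a description of letters in this window, not a site of binding. The upstream stretches of 3 genes that fell and 1 that rose follow, on the gene's own strand, with each CCAAT box or its reverse complement ATTGG in capitals. They lie at chr17:66547525-66547774 (minus strand) for Idi1, chr13:84722755-84723004 (minus) for Hsd17b7, chrX:155817110-155817359 (plus) for Nsdhl and chr12:47819504-47819753 (minus) for Mvk. The counts were made on rn6, so these positions belong to the promoters only.
Idi1: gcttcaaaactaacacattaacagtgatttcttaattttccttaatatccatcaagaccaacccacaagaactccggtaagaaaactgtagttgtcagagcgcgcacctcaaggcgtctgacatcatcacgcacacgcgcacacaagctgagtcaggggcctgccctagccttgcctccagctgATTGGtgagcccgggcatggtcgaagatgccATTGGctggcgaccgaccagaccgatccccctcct
Hsd17b7: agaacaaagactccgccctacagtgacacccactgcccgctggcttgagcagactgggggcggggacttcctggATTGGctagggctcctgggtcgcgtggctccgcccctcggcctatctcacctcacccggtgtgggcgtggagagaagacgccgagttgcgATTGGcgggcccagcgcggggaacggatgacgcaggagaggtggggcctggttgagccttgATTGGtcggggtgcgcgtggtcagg
Nsdhl: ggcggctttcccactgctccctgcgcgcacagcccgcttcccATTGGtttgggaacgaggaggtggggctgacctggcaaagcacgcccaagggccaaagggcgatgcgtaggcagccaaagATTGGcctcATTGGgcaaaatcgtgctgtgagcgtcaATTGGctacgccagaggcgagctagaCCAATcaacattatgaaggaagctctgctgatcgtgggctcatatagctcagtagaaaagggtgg
Mvk: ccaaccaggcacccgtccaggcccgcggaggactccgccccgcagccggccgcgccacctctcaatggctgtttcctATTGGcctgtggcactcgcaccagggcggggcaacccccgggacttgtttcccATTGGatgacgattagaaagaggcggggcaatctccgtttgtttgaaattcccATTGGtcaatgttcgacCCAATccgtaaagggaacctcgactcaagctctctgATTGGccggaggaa
Idi1, which fell, has boxes at -66 and -35 from its start, and Mvk, which rose, has boxes at -173, -120, -67, -50 and -14. Hsd17b7 has 3 boxes and Nsdhl has 5. Mvk is not typical of the members that rose: no other has more than 2, the count in Fdps, and Acat2, Dhcr7 and Fads2 have 0. Among those that fell Msmo1 also has 3, while Cyp51 has 0.

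The mevalonate steps split within a run of consecutive reactions. All 7 genes were called in sh-APP against control, with 5 higher and 2 lower. The largest fall of any member was in Idi1, which interconverts the isoprenoid building blocks isopentenyl and dimethylallyl diphosphate. It had 149, 192 and 183 CPM in sh-APP, 244, 329 and 250 CPM in anti-Abeta, and 440 and 455 CPM in control. The groups form a ladder with no overlap, sh-APP lowest and control highest. Against control the log2 fold change of sh-APP was -1.36 ± 0.13 (SE, adjusted p = 7.54e-06, edgeR), that of anti-Abeta was -0.71 ± 0.13 (adjusted p = 0.00367), and the difference between the arms was -0.65 ± 0.12 (adjusted p = 0.00251). On the rat build GRCr8 the span of Idi1 overlaps that of Wdr37. Without strand information reads in a shared stretch cannot be told apart, and whether exons are shared was not looked up.

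The kinases and the decarboxylase just before Idi1 went the other way. Mevalonate kinase, Mvk, had 70.4, 70.3 and 70.9 CPM in sh-APP, 53.9, 53.7 and 54.3 CPM in anti-Abeta, and 38.3 and 45.3 CPM in control. Again the groups did not overlap, here with sh-APP highest. Its log2 fold change was 0.75 ± 0.09 in sh-APP against control (adjusted p = 2.26e-05, edgeR), 0.37 ± 0.09 in anti-Abeta (adjusted p = 0.00949) and 0.39 ± 0.08 between the arms (adjusted p = 0.00365). Mvd, the decarboxylase that yields isopentenyl diphosphate, had 122, 111 and 114 CPM in sh-APP, 81.0, 83.3 and 98.5 CPM in anti-Abeta, and 68.0 and 72.1 CPM in control. It was 0.72 ± 0.09 higher in sh-APP and 0.32 ± 0.09 higher in anti-Abeta than in control on the log2 scale, and 0.40 ± 0.08 higher in sh-APP than in anti-Abeta. Pmvk, the kinase between these enzymes, was 0.63 ± 0.09 higher in sh-APP and 0.31 ± 0.09 higher in anti-Abeta, and 0.32 ± 0.08 higher between the arms. These 3 enzymes of one short stretch were thus highest in sh-APP and lowest in control in every library measured.

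The entry and the exit of the mevalonate steps moved less. Hmgcs1, the synthase that makes HMG-CoA, had 1403, 1395 and 1555 CPM in sh-APP, 1338, 1603 and 1408 CPM in anti-Abeta, and 1726 and 1829 CPM in control. Both arms lay below control and overlapped each other, with log2 fold changes of -0.29 ± 0.09 in sh-APP (edgeR, adjusted p = 0.0135), -0.29 ± 0.09 in anti-Abeta (adjusted p = 0.0265), and 0.00 ± 0.08 between the arms (adjusted p = 0.994). Fdps, which joins the isoprenoid units to farnesyl diphosphate, had 566, 550 and 540 CPM in sh-APP, 495, 465 and 482 CPM in anti-Abeta, and 441 and 449 CPM in control. It rose by 0.31 ± 0.07 in sh-APP (adjusted p = 0.00165), while the anti-Abeta value of 0.11 ± 0.07 did not pass (adjusted p = 0.232). Acat2, the thiolase that joins acetyl-CoA units at the start, rose by 0.23 ± 0.08 in sh-APP (adjusted p = 0.0219) and had 0.14 ± 0.08 in anti-Abeta, not called.

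Some of these calls were lost when a library was left out or a setting was changed, with estimates that shrank in some cases and held or grew in others. In sh-APP against control the adjusted p of Acat2 was 0.0767 without sh-APP replicate 3 and 0.217 without control replicate 1, and that of Hmgcs1 was 0.133 without control replicate 2 and 0.392 with library totals in place of TMM (edgeR). In anti-Abeta against control, the calls of Mvk and Idi1 were lost without control replicate 1. The log2 fold change of Mvk was then 0.24, and that of Idi1 was -0.74. Those of Pmvk and Mvd were not called without anti-Abeta replicate 3 (adjusted p = 0.0811 and 0.0785) or without either control library. Pmvk then had 0.27 without control replicate 1 and 0.34 without control replicate 2, and Mvd had 0.27 and 0.36. Pmvk was also lost with only the groups compared in the fit (0.0536). Hmgcs1 in anti-Abeta was lost without anti-Abeta replicate 1 or 3 or either control library (0.0813 to 0.159) and with library totals (0.200). Between the arms, Pmvk was lost without sh-APP replicate 3 (0.0541), and Fdps without any sh-APP library or without anti-Abeta replicate 3 (0.0531 to 0.107).

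Squalene synthesis and the closure to the sterol ring showed 1 gene in each direction. Sqle, the epoxidase that carries out a rate-limiting step of the later pathway, had 357, 376 and 371 CPM in sh-APP, 384, 411 and 398 CPM in anti-Abeta, and 538 and 508 CPM in control. Both arms were below control, with log2 fold changes of -0.51 ± 0.07 in sh-APP (edgeR, adjusted p = 5.71e-05) and -0.40 ± 0.07 in anti-Abeta (adjusted p = 0.0029). Between the arms it had -0.11 ± 0.06, not called (adjusted p = 0.201), although the libraries of sh-APP were all lower than those of anti-Abeta. Lss, which folds the epoxide into lanosterol, had 283, 284 and 293 CPM in sh-APP, 214, 236 and 233 CPM in anti-Abeta, and 183 and 224 CPM in control. It rose by 0.49 ± 0.09 in sh-APP (adjusted p = 5.50e-04), had 0.16 ± 0.09 in anti-Abeta, where it overlapped control (adjusted p = 0.194), and was 0.33 ± 0.08 higher in sh-APP than in anti-Abeta (adjusted p = 0.00973). The anti-Abeta value of Lss passed with library totals (edgeR, adjusted p = 0.0189), and without control replicate 2 its log2 fold change was 0.31. Fdft1, the squalene synthase, was not called in any of the 3 comparisons: it had 0.06 ± 0.07 in sh-APP (adjusted p = 0.447), -0.10 ± 0.07 in anti-Abeta (0.262) and 0.17 ± 0.06 between the arms (0.0552). The last of these passed in DESeq2 (0.0250), with only the groups compared (0.0489) and without anti-Abeta replicate 2 (0.0266), and with library totals Fdft1 was also called higher in sh-APP against control (0.00467).

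Of the 8 enzymes that remodel lanosterol 5 fell and 2 rose in sh-APP, and 5 fell and 1 rose in anti-Abeta, where 3 to 5 fell and 0 or 1 rose with a library left out. Over all tested genes 27.9% fell in sh-APP and 16.6% in anti-Abeta. Cyp51, Msmo1, Nsdhl, Hsd17b7 and Sc5d were lower in each arm, set against the same control libraries. Cyp51, Msmo1, Nsdhl and Hsd17b7 act in the removal of methyl groups from the ring. Msmo1, the monooxygenase of that step, had 1104, 1156 and 1169 CPM in sh-APP, 1390, 1385 and 1359 CPM in anti-Abeta, and 1992 and 1824 CPM in control. The groups form a ladder with no overlap: -0.74 ± 0.07 in sh-APP (adjusted p = 6.81e-06, edgeR), -0.47 ± 0.07 in anti-Abeta (adjusted p = 0.00226) and -0.27 ± 0.06 between the arms (adjusted p = 0.00821). Hsd17b7, the ketoreductase that follows, had 31.9, 37.4 and 37.6 CPM in sh-APP, 54.7, 62.5 and 49.4 CPM in anti-Abeta, and 75.8 and 81.7 CPM in control. Its log2 fold change was -1.15 ± 0.11 in sh-APP (adjusted p = 7.67e-06), -0.50 ± 0.11 in anti-Abeta (adjusted p = 0.00689) and -0.64 ± 0.10 between the arms (adjusted p = 0.00132), so sh-APP reached 0.45 times the control level.

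For the other lowered remodelling genes the arms overlapped. Nsdhl, the dehydrogenase that takes off the carboxyl group, had 159, 167 and 182 CPM in sh-APP, 156, 179 and 160 CPM in anti-Abeta, and 223 and 234 CPM in control. Sc5d, a desaturase near the end of the pathway, had 263, 265 and 273 CPM in sh-APP, 276, 296 and 271 CPM in anti-Abeta, and 378 and 400 CPM in control. For both genes the libraries of the arms were mixed in order and lay wholly below control. Nsdhl had -0.43 ± 0.08 in sh-APP (edgeR, adjusted p = 8.50e-04) and -0.47 ± 0.08 in anti-Abeta (adjusted p = 0.0034), with 0.04 ± 0.08 between the arms (adjusted p = 0.777). Sc5d had -0.54 ± 0.07 in sh-APP (adjusted p = 4.33e-05) and -0.47 ± 0.07 in anti-Abeta (adjusted p = 0.00226), with -0.07 ± 0.06 between the arms (adjusted p = 0.444). Cyp51, the lanosterol demethylase, had 950, 950 and 1028 CPM in sh-APP, 882, 991 and 916 CPM in anti-Abeta, and 1124 and 1166 CPM in control, with log2 fold changes of -0.23 ± 0.07 in sh-APP (adjusted p = 0.0202) and -0.30 ± 0.07 in anti-Abeta (adjusted p = 0.0122). The Cyp51 call in sh-APP was lost without sh-APP replicate 1 or 2 or either control library (adjusted p = 0.0561 to 0.154) and with library totals (0.790), and that in anti-Abeta without either control library (0.0739 and 0.0803) and with library totals (0.136). Hsd17b7 in anti-Abeta was lost without control replicate 1 (0.0568) or 2 (0.0567), and Msmo1 between the arms without sh-APP replicate 1 (0.0513).

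Tm7sf2 and Dhcr7, reductases of this set, rose in sh-APP, while the ketoreductase Hsd17b7 fell. Tm7sf2, a sterol reductase of the endoplasmic reticulum and nuclear envelope, had 97.9, 92.2 and 99.6 CPM in sh-APP, 70.9, 67.9 and 76.0 CPM in anti-Abeta, and 60.9 and 61.0 CPM in control. It was 0.66 ± 0.08 higher in sh-APP (adjusted p = 2.91e-05, edgeR), 0.23 ± 0.08 higher in anti-Abeta (adjusted p = 0.0435) and 0.43 ± 0.07 higher between the arms (adjusted p = 0.0015). Dhcr7, the reductase that finishes cholesterol in one branch, had 207, 193 and 201 CPM in sh-APP, 181, 164 and 167 CPM in anti-Abeta, and 138 and 158 CPM in control. It rose by 0.44 ± 0.08 in sh-APP (adjusted p = 6.21e-04), while anti-Abeta had 0.21 ± 0.08 without a call (adjusted p = 0.0714), and sh-APP was 0.23 ± 0.07 higher than anti-Abeta (adjusted p = 0.0324). In every library of sh-APP both reductases lay above every library of the other groups. The anti-Abeta call of Tm7sf2 was lost with RLE size factors, without the low-count filter, with only the groups compared, and without any library other than anti-Abeta replicate 2 (adjusted p = 0.0518 to 0.206). The Dhcr7 difference between the arms was lost without sh-APP replicate 1 or 3 or anti-Abeta replicate 2 or 3 (0.0584 to 0.115). Ebp, the isomerase between these steps, had 13.0 to 15.1 CPM in sh-APP, 13.4 to 16.6 CPM in anti-Abeta and 13.6 to 14.4 CPM in control, and its log2 fold changes of 0.01 ± 0.13 in sh-APP, 0.14 ± 0.14 in anti-Abeta and -0.13 ± 0.12 between the arms did not pass.

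**Figure D2:**
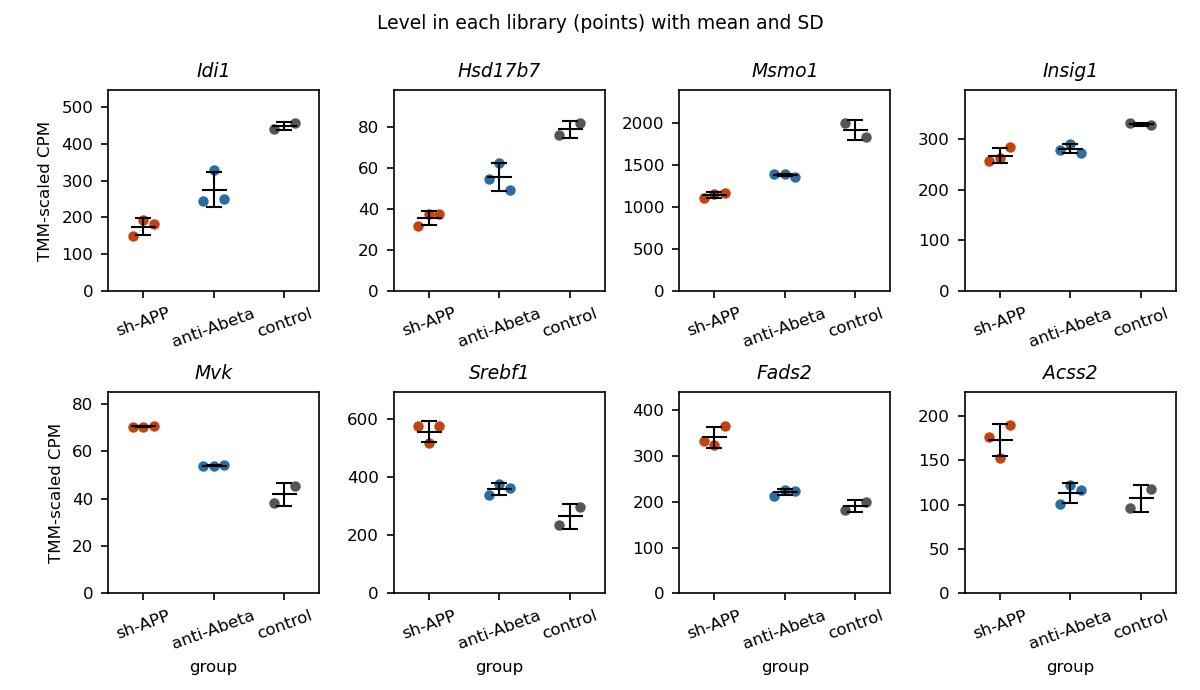
Levels in CPM (y axis, a separate scale for each gene) of Idi1, Hsd17b7, Msmo1, Insig1, Mvk, Srebf1, Fads2 and Acss2, with 1 point for each library in sh-APP, anti-Abeta and control. Horizontal lines are the mean and 1 SD on each side. Idi1, Hsd17b7 and Msmo1 are lowest in sh-APP and highest in control, Mvk and Srebf1 are highest in sh-APP and lowest in control, and for Acss2 sh-APP stands above both other groups.

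The regulators also split. Srebf1, the factor best known for fatty acid genes, rose most of all members. It had 578, 518 and 579 CPM in sh-APP, 339, 379 and 365 CPM in anti-Abeta, and 236 and 296 CPM in control. The log2 fold change was 1.07 ± 0.10 in sh-APP (adjusted p = 7.39e-06, edgeR), 0.44 ± 0.10 in anti-Abeta (adjusted p = 0.00834) and 0.63 ± 0.09 between the arms (adjusted p = 9.19e-04), and the groups did not overlap. Srebf2, the factor best known for sterol genes, had 400, 398 and 401 CPM in sh-APP, 343, 340 and 378 CPM in anti-Abeta, and 289 and 297 CPM in control. It rose by 0.45 ± 0.07 in sh-APP (adjusted p = 1.98e-04) and by 0.27 ± 0.07 in anti-Abeta (adjusted p = 0.0143), and the 0.18 ± 0.06 between the arms missed the threshold (adjusted p = 0.0568). The message of both factors was thus highest in sh-APP, while counts of RNA say nothing of their cleaved, active proteins. The span of Srebf1 overlaps that of Rai1 on GRCr8, and reads in a shared stretch cannot be told apart without strand.

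Insig1 and Stard4 fell in both arms. Insig1, which retains the SREBP complex in the endoplasmic reticulum and is itself a sterol-responsive gene, had 256, 261 and 283 CPM in sh-APP, 278, 290 and 273 CPM in anti-Abeta, and 330 and 326 CPM in control. Its log2 fold change was -0.30 ± 0.07 in sh-APP (edgeR, adjusted p = 0.00315) and -0.23 ± 0.07 in anti-Abeta (adjusted p = 0.0301). Stard4, a soluble carrier that moves cholesterol between membranes, had 29.0, 29.6 and 27.9 CPM in sh-APP, 28.1, 37.0 and 32.3 CPM in anti-Abeta, and 42.3 and 39.9 CPM in control. It fell by 0.51 ± 0.11 in sh-APP (adjusted p = 0.00219) and by 0.34 ± 0.11 in anti-Abeta (adjusted p = 0.042). For both, the arms overlapped each other and neither was called between the arms (-0.07 ± 0.06 for Insig1 and -0.17 ± 0.10 for Stard4). With library totals Insig1 lost its call in sh-APP (adjusted p = 0.284). In anti-Abeta the calls were less firm. Srebf1 was lost without control replicate 1 (0.139), and Srebf2 without anti-Abeta replicate 3 or either control library (0.0545 to 0.131). Insig1 was lost without anti-Abeta replicate 1 or 3 or either control library (0.0754 to 0.147), with library totals (0.435) and with only the groups compared (0.0591). Stard4 was lost without any library other than anti-Abeta replicate 2 (0.0505 to 0.231), with library totals (0.205) and with only the groups compared (0.0693). The Srebf2 difference between the arms passed in DESeq2 (0.0290), with only the groups compared (0.0481) and without anti-Abeta replicate 3 (0.0291).

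No fatty acid member was called lower. Of the 7 tested, 4 rose in sh-APP, 1 in anti-Abeta and 3 between the arms. Over all tested genes 25.8% rose and 27.9% fell in sh-APP, 12.7% and 16.6% in anti-Abeta, and 10.1% and 16.0% between the arms. At an unadjusted p under 0.05 (edgeR) the member counts were 5 higher in sh-APP, 2 in anti-Abeta and 3 between the arms, with 0 lower in each. The share of all genes at that unadjusted level was not counted, so with 7 genes these counts are descriptions only. DESeq2 likewise called 0 of the 7 lower. Acss2, which makes cytosolic acetyl-CoA from acetate, had 176, 153 and 189 CPM in sh-APP, 100, 122 and 116 CPM in anti-Abeta, and 96.4 and 117 CPM in control. The sh-APP libraries stood apart while anti-Abeta overlapped control, with 0.69 ± 0.12 in sh-APP (adjusted p = 3.42e-04, edgeR), 0.08 ± 0.12 in anti-Abeta (adjusted p = 0.643) and 0.61 ± 0.10 between the arms (adjusted p = 0.00182). Fasn, the multi-enzyme synthase of palmitate, had 309, 385 and 396 CPM in sh-APP, 307, 309 and 341 CPM in anti-Abeta, and 241 and 263 CPM in control. It rose by 0.53 ± 0.10 in sh-APP (adjusted p = 0.00105) and by 0.34 ± 0.10 in anti-Abeta (adjusted p = 0.0296), with the arms overlapping and 0.19 ± 0.09 between them (adjusted p = 0.162). The Fasn call in anti-Abeta was lost without anti-Abeta replicate 3 or either control library (0.0688 to 0.238), and the difference between the arms passed without sh-APP replicate 1 (0.0304).

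Unlike Acss2, Acly and Acaca, which also act before Fasn, were not called. Acly, which splits citrate to acetyl-CoA, had 445, 467 and 505 CPM in sh-APP, 424, 445 and 423 CPM in anti-Abeta, and 382 and 445 CPM in control. Its log2 fold change was 0.19 ± 0.08 in sh-APP (edgeR, adjusted p = 0.0711) and 0.06 ± 0.08 in anti-Abeta, and every pair of groups overlapped. Acaca, which makes malonyl-CoA, had 23.5 to 29.4 CPM in sh-APP, 24.7 to 28.2 CPM in anti-Abeta and 21.4 and 24.4 CPM in control, with 0.24 ± 0.12 in sh-APP (adjusted p = 0.116) and 0.20 ± 0.12 in anti-Abeta (adjusted p = 0.249). With library totals both passed in sh-APP (0.00119 for Acly and 0.00662 for Acaca). Without control replicate 2 Acly passed there too (0.02), and Acaca passed without sh-APP replicate 1 (0.0367). Acaca overlaps the gene C10h17orf78, which limits how surely its reads can be assigned.

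The desaturases of polyunsaturated fatty acids rose in sh-APP. Fads2 had 332, 324 and 367 CPM in sh-APP, 214, 227 and 224 CPM in anti-Abeta, and 181 and 200 CPM in control. It was 0.84 ± 0.08 higher in sh-APP (adjusted p = 7.73e-06, edgeR), had 0.22 ± 0.08 in anti-Abeta and narrowly missed the threshold there (adjusted p = 0.0554), and was 0.62 ± 0.07 higher between the arms (adjusted p = 4.33e-04). Fads1, which acts after it on the same chains, had 742, 712 and 822 CPM in sh-APP, 527, 628 and 585 CPM in anti-Abeta, and 563 and 605 CPM in control. It rose by 0.38 ± 0.09 in sh-APP (adjusted p = 0.00362; 0.0518 without control replicate 1), had -0.01 ± 0.09 in anti-Abeta (adjusted p = 0.947) and was 0.39 ± 0.08 higher between the arms (adjusted p = 0.00491). For Fads1 anti-Abeta and control overlapped, and sh-APP stood above both. Scd, which makes monounsaturated chains, varied within groups: 166, 166 and 203 CPM in sh-APP, 123, 189 and 150 CPM in anti-Abeta, and 169 and 208 CPM in control. Its log2 fold changes of -0.08 ± 0.15 in sh-APP, -0.29 ± 0.15 in anti-Abeta and 0.21 ± 0.14 between the arms did not pass, but without anti-Abeta replicate 2 Scd was called lower in anti-Abeta than in control (adjusted p = 0.0148) and higher in sh-APP than in anti-Abeta (adjusted p = 0.0334).

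**Figure D3:**
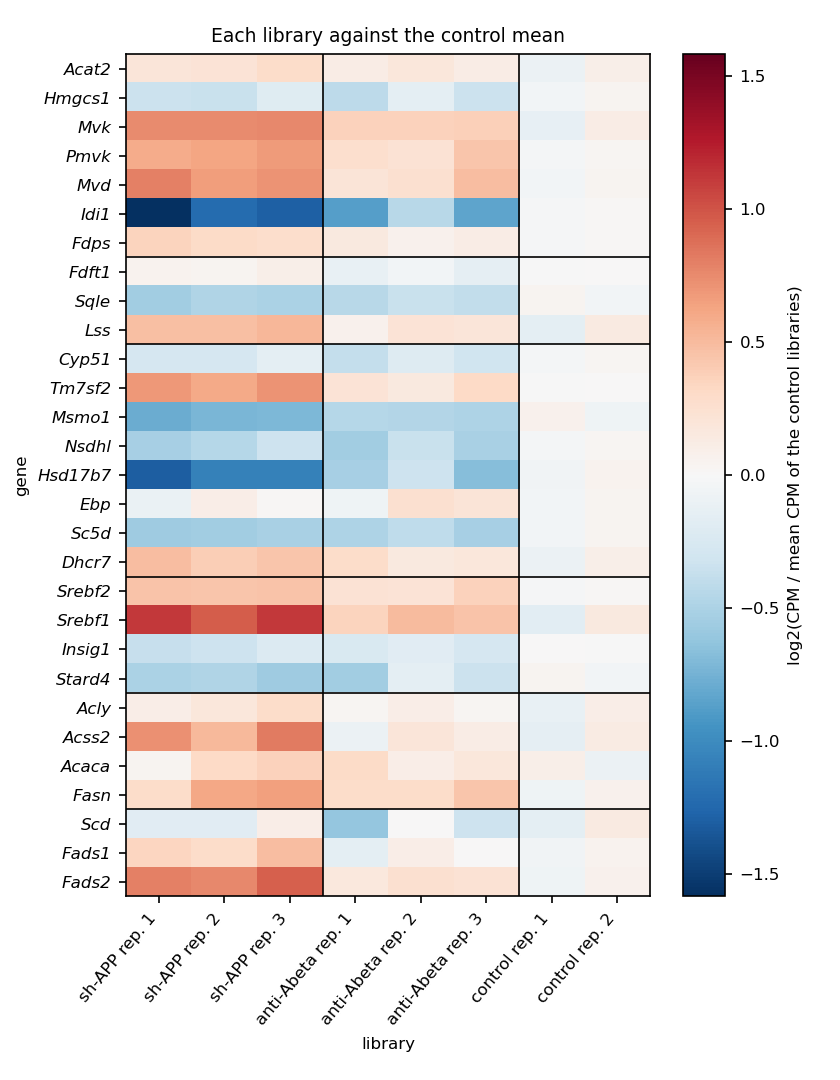
Colour shows the log2 ratio of each library's CPM to the control mean for the 29 tested members (rows, in pathway order) in the 8 libraries (columns, sh-APP, anti-Abeta, then control). In the sh-APP columns Idi1 and Hsd17b7 have the deepest blue (lower) and Srebf1 the deepest red (higher), and the anti-Abeta columns are paler for these 3 genes.

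The direct comparison gives the difference between the arms without the control libraries' level. It placed Fads2, Srebf1, Acss2, Tm7sf2, Mvd, Mvk, Fads1, Lss, Pmvk, Dhcr7 and Fdps higher in sh-APP, from 0.63 (Srebf1) to 0.20 (Fdps) on the log2 scale. Idi1 (-0.65), Hsd17b7 (-0.64) and Msmo1 (-0.27) were lower in sh-APP. Of these 14 calls, 10 held under each of the alternatives run: Mvk, Mvd, Idi1, Lss, Tm7sf2, Hsd17b7, Srebf1, Acss2, Fads1 and Fads2. The median log2 difference of the members was 0.17, against -0.01 over all tested genes. Of the sterol genes that fell in both arms, Hmgcs1, Cyp51, Nsdhl, Sc5d, Sqle, Insig1 and Stard4 were not called between the arms, which does not show that they were equal.

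**Figure D4:**
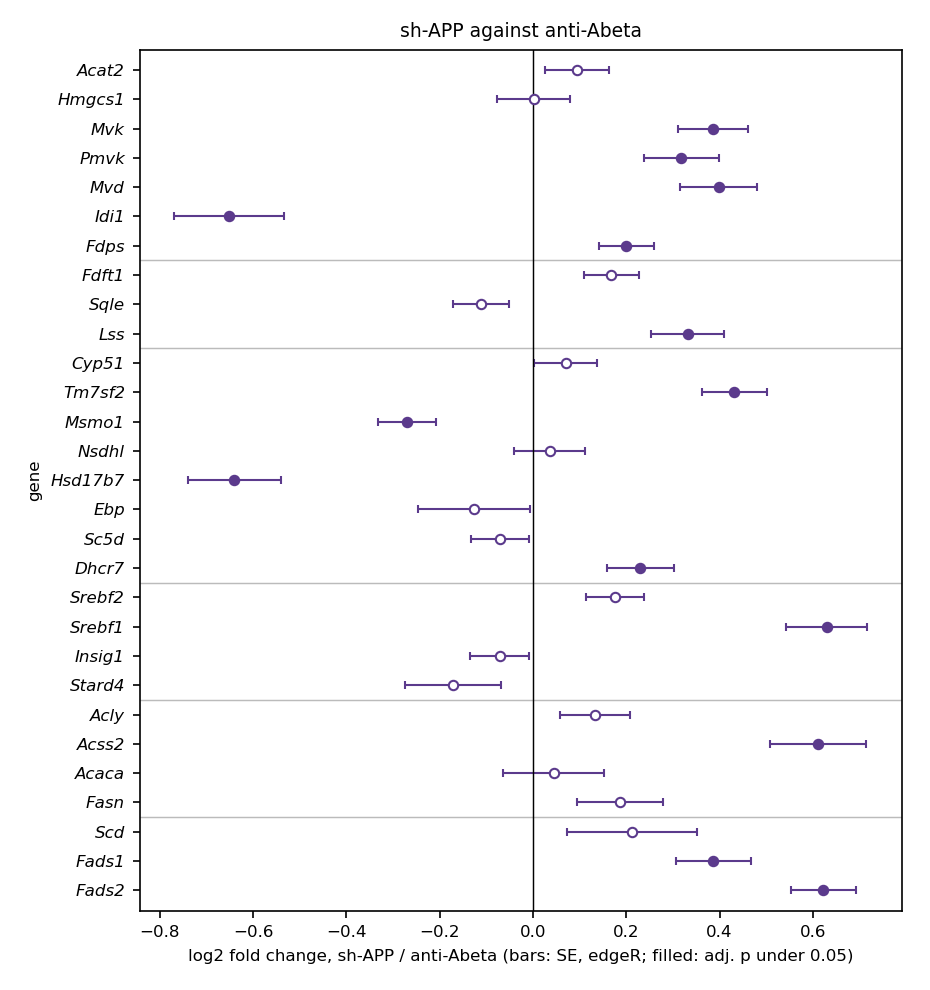
Log2 difference of sh-APP over anti-Abeta (x axis) with 1 standard error on each side for the 29 tested members, in pathway order. Filled and open points mark members called and not called by edgeR, and the called ones run from -0.65 (Idi1) to 0.63 (Srebf1).

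Other genes of these pathways were followed from a list of 67, of which 64 were tested. In sh-APP against control 23 rose and 20 fell, in anti-Abeta 13 rose and 14 fell, and between the arms 15 were higher and 10 lower. Over all tested genes 25.8% rose and 27.9% fell in sh-APP, 12.7% rose and 16.6% fell in anti-Abeta, and 10.1% were higher and 16.0% lower between the arms, so counts over these lists and their roles are descriptions only. Among 9 tested genes listed under SREBP control and related regulation, Mylip among them, 5 rose and 2 fell in sh-APP. Scap, the escort protein of SREBP, had 232, 220 and 222 CPM in sh-APP, 175, 175 and 195 CPM in anti-Abeta, and 134 and 146 CPM in control, a rise of 0.68 ± 0.08 in sh-APP (adjusted p = 2.40e-05, edgeR). Nr1h2, the oxysterol receptor LXR beta that activates Srebf1, rose by 0.79 ± 0.09 in sh-APP (adjusted p = 1.93e-05) and by 0.57 ± 0.09 in anti-Abeta (adjusted p = 0.00233). Mbtps2, a protease that releases SREBP from the membrane, had 21.3, 23.9 and 23.5 CPM in sh-APP, 32.0, 48.4 and 32.6 CPM in anti-Abeta, and 54.0 and 55.0 CPM in control, a log2 fold change of -1.25 ± 0.15 in sh-APP (adjusted p = 3.58e-05). Mbtps1, the protease that cuts SREBP before Mbtps2 and is named here after its values were seen, had 135, 123 and 129 CPM in sh-APP, 121, 112 and 125 CPM in anti-Abeta, and 101 and 108 CPM in control. It rose by 0.30 ± 0.08 in sh-APP (adjusted p = 0.00644), so the escort and this protease were higher and Mbtps2 was lower, with no overlap between sh-APP and control for any of them. Rnf139, a ubiquitin ligase that limits SREBP processing, fell by 1.10 ± 0.10 in sh-APP (adjusted p = 6.49e-06). Mbtps2 overlaps Yy2 and Rnf139 overlaps Tatdn1.

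Among 11 tested genes of other sterol and isoprenoid steps, 3 rose and 3 fell in sh-APP. Por, the reductase that gives electrons to Cyp51 and Sqle, rose by 0.60 ± 0.07 (adjusted p = 3.32e-05, edgeR). Ggps1, which makes the isoprenoid used to anchor small GTPases, had 37.8, 51.0 and 44.5 CPM in sh-APP, 58.8, 73.0 and 61.0 CPM in anti-Abeta, and 105 and 94.3 CPM in control. It fell by 1.17 ± 0.12 in sh-APP (adjusted p = 1.47e-05), the same direction as Idi1, while Fdps between them rose. Of the 18 genes of cholesterol uptake, transport and storage 7 rose and 4 fell. Apoe, the main astrocyte apolipoprotein, had 12627, 11785 and 10904 CPM in sh-APP, 10302, 8861 and 11041 CPM in anti-Abeta, and 7159 and 7224 CPM in control, and rose by 0.71 ± 0.10 in sh-APP (adjusted p = 8.50e-05). Soat1, which esterifies cholesterol for storage, had 39.3, 44.5 and 39.9 CPM in sh-APP, 60.0, 52.3 and 61.3 CPM in anti-Abeta, and 63.7 and 57.4 CPM in control, and was called lower in sh-APP than in anti-Abeta (-0.49 ± 0.09, adjusted p = 0.0025).

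Of 26 further fatty acid genes 8 rose and 11 fell in sh-APP. Thrsp, a small nuclear protein tied to fat synthesis in liver, had 25.0, 20.3 and 26.5 CPM in sh-APP, 12.5, 8.37 and 11.6 CPM in anti-Abeta, and 8.73 and 10.7 CPM in control. It rose by 1.30 ± 0.19 in sh-APP (adjusted p = 1.09e-04, edgeR), had 0.16 ± 0.19 in anti-Abeta (adjusted p = 0.57) and was 1.15 ± 0.16 higher between the arms (adjusted p = 9.86e-04). Acsl4, which activates arachidonate, had 21.3, 23.3 and 25.8 CPM in sh-APP, 44.0, 67.3 and 34.7 CPM in anti-Abeta, and 74.5 and 69.1 CPM in control, a log2 fold change of -1.61 ± 0.20 in sh-APP (adjusted p = 4.20e-05). Its anti-Abeta value of -0.56 ± 0.20 was not called (adjusted p = 0.0544) and passed in DESeq2 (0.0155) and without anti-Abeta replicate 2 (3.74e-04). Acsl3, Elovl4 and Hsd17b12, which activate and lengthen long chains, fell in sh-APP by 0.97 ± 0.08, 0.86 ± 0.09 and 1.07 ± 0.13. Me1, a supplier of NADPH for fat synthesis, fell by 0.40 ± 0.07 in sh-APP (adjusted p = 3.86e-04) and by 0.46 ± 0.07 in anti-Abeta (adjusted p = 0.00226). The carrier of citrate out of mitochondria, Slc25a1, rose by 0.55 ± 0.07 in sh-APP (adjusted p = 3.99e-05). Of the named related genes called in anti-Abeta against control, Nr1h2, Me1 and Hacd3 held under each alternative run, and the others shown, Apoe and Scap among them, lost the call without control replicate 1 (adjusted p = 0.0514 for Fabp7 to 0.331 for Nceh1).

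**Figure D5:**
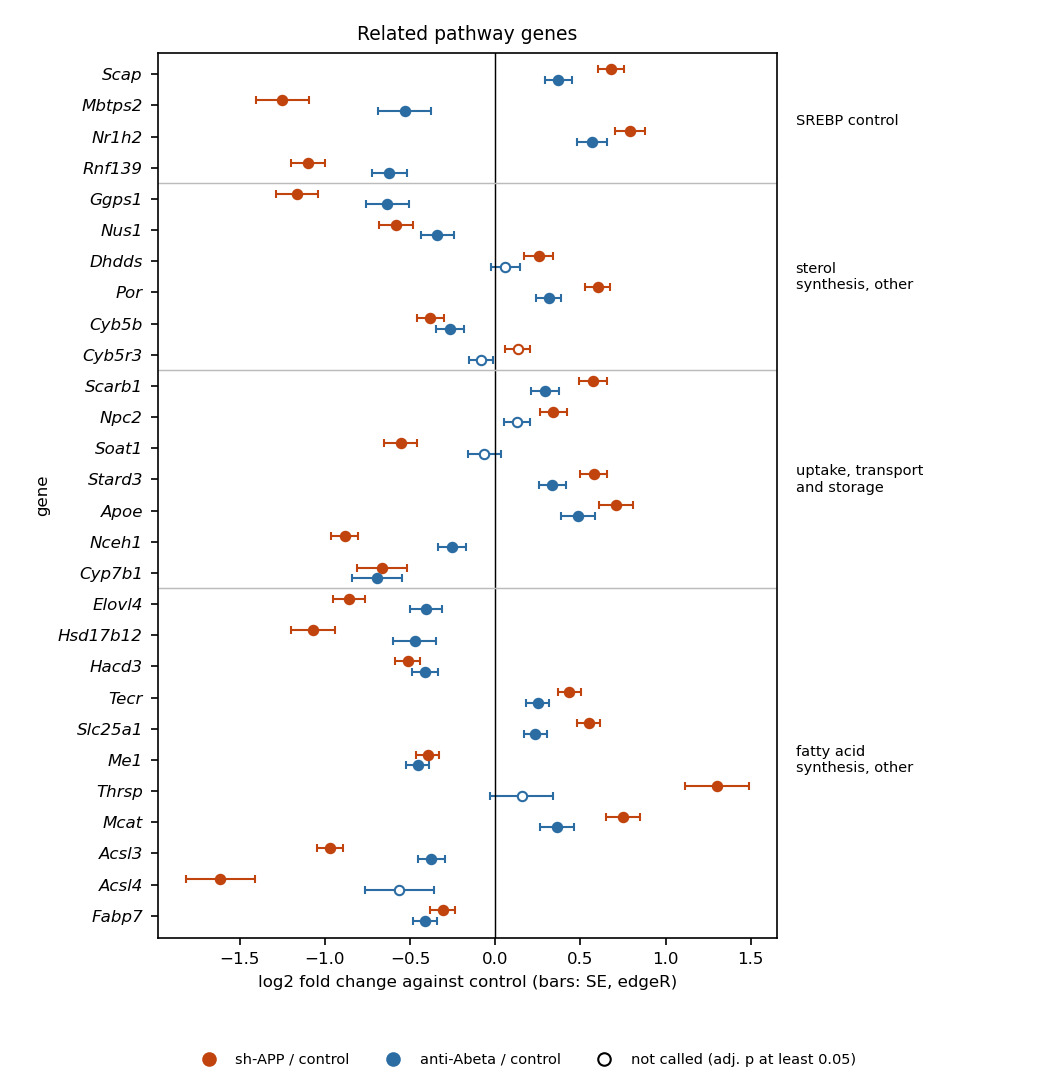
Log2 fold change (x axis) with 1 standard error on each side for related genes selected by smallest p among called genes. They are grouped by role, in sh-APP against control and anti-Abeta against control. Of the genes shown Acsl4 lies lowest in sh-APP at -1.61 and Thrsp highest at 1.30. Over all tested related genes the highest sh-APP value was 2.09. Most anti-Abeta points shown lie between 0 and the sh-APP points.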

How the data were processed

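RNA-seq was measured in 8 libraries of rat astrocytes. The counts deposited by the authors are raw, as whole numbers whose totals differ between libraries. STAR 2.6.0a, HTSeq 0.11.1, the build rn6, FastQC 0.11.7, SAMtools 1.9, DESeq2 1.24.0 and Trimmomatic 0.36 are named in the submitters' processing notes, with no role or settings, and strandedness is not stated there.

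The members, lists and tests were chosen with earlier results of these data known. All 8 libraries entered a single edgeR 4.0.16 fit (R 4.3.3) whose single term was the group, which left 5 degrees of freedom. The low-count filter was filterByExpr (minimum count 10, minimum total 15), libraries were scaled by TMM, and 3 comparisons were tested with the robust quasi-likelihood test and Benjamini-Hochberg adjustment over 14445 genes at 0.05. A standard error (SE) is |log2 fold change| over the root of F. Levels are CPM on the TMM scale. All 30 members are named, and from the related genes up to 3 called in each direction per role and comparison, by smallest p; 3 of these are not reported here. Of the 67 related genes Mlxipl failed the filter, and March6 and Erg28 are not analysed here.

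Alternatives were DESeq2 1.42.0, RLE factors, library totals, no filter, the replicate number as a block, a fit limited to the groups compared, and fits with each library left out. Overlapping genes were looked up in RefSeq's GRCr8 table by whole gene span, introns included. There 11 of the 30 members overlap another gene and 3 of them a protein-coding one. At these depths the spread between libraries, not counting error, sets the precision.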

Additional observations from a re-analysis of the deposited data

How the results depend on the processing

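The counts for sh-APP against control changed by less than 1.5 times in each alternative: without single libraries 12 to 15 members rose, 8 to 10 fell, and 5942 to 7954 genes were called in all, against 7750 with all libraries. Anti-Abeta against control depended on the libraries. The 7 members that rose became 13 with library totals and 0 to 7 without single libraries, and the 10 that fell became 6 and 4 to 11. Calls over all genes were 439 to 4775 there, against 4223 with all libraries, and the low end came without control replicate 1. With 2 control libraries, leaving one out rests on a single library assumed to vary like the other groups. Between the arms 2233 to 3582 genes were called without single libraries, against 3768. Library totals moved the median of all genes by 0.20 in sh-APP and 0.15 in anti-Abeta against control, and by 0.05 between the arms, on the log2 scale. With them Acaca, Acat2, Dhcr7, Fads2, Fdps and Lss were also called higher in anti-Abeta than in control. Between the arms Fdft1 and Srebf2 were then also called higher in sh-APP.

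Same-numbered sh-APP and anti-Abeta libraries correlated at 0.105, 0.0984 and -0.00562 in their deviations from the group mean. The crossed pairs had -0.101 (sh-APP replicate 1 with anti-Abeta replicate 2) and -0.108 (sh-APP replicate 2 with anti-Abeta replicate 1). With so few libraries these values cannot decide whether the numbers pair the samples, and the labels do not say so. The replicate block gave 4 higher members in anti-Abeta against control, in place of 7, without Pmvk (adjusted p = 0.0692, edgeR), Mvd (0.0625) and Tm7sf2 (0.124), and 8 lower members in place of 10, without Insig1 (0.0559) and Stard4 (0.0666). Between the arms it lost Dhcr7 (0.0519), and it changed no member call in sh-APP against control.

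Of 180 gene results in 14 alternatives, 2279 values kept direction and side of the threshold, 172 lost the call, 43 gained it and 26 changed sign. None of the values that changed sign was called with all libraries and TMM. In sh-APP against control they were Ebp (-0.0038 in DESeq2 and with RLE, -0.013 with the replicate block, -0.042 to 0.068 without single libraries) and Scd (0.13 with library totals, -0.21 to 0.10 without single libraries). In anti-Abeta against control library totals turned Fdft1 to 0.045, Fads1 to 0.14, Cyb5r3 to 0.067 and Soat1 to 0.088. Without single libraries Acly had -0.058 to 0.17, Acss2 -0.065 to 0.23, Fads1 -0.085 to 0.054, Dhdds -0.019 to 0.11 and Soat1 -0.14 to 0.00034. Between the arms Hmgcs1 had -0.052 to 0.10, Nsdhl -0.020 to 0.12, Acaca -0.017 to 0.14 and Cyp7b1 -0.14 to 0.19. The cause was not tested.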
